A study of Mus musculus with 27 samples.

Results

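The 52 protein-coding genes described here encode the core of the splicing machinery and its best known partners in mouse liver. They were chosen by name from the 54532 genes of the deposited table: 11 SR protein genes (Srsf), 20 heterogeneous nuclear ribonucleoprotein genes (Hnrnp), 12 genes for Sm, U1 and U2 small nuclear ribonucleoproteins (Snrp) and 9 genes for subunits of SF3A and SF3B (Sf3a, Sf3b). No expression value entered that choice. Liver RNA came from wild-type C57/BL6J mice in 5 groups. The sham group (n = 5) was operated without resection, at a time the labels do not give. The PHx24 and PHx48 groups (n = 7 each) had 70% of the liver removed and were sampled 24 h and 48 h later. The PHx24_ETO and PHx48_ETO groups (n = 4 each) had the same resection and etomoxir, an inhibitor of the carnitine shuttle that carries long-chain fatty acids into mitochondria. Mice received 12.5 mg/kg by injection 4 h ahead of surgery, and those of the 48 h group a further dose at 24 h. There was no sham group with etomoxir, and the labels give no age, sex or vehicle. Nor do they say whether every library is its own animal: p-values thus rest on the scatter among libraries, which may be partly technical. Whole liver was sequenced, so more RNA per cell and more cells of a type cannot be told apart in these values.

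As background, an intron is removed by the spliceosome, which is built anew on each intron. The U1 particle binds the start of the intron and the U2 particle binds the branch point near its end. Both carry a ring of Sm proteins on their RNA, and SF3A and SF3B hold U2 on the branch point. SR proteins bind exons through RNA recognition motifs and recruit U1 and U2 through their arginine and serine rich tails. The hnRNPs coat nascent transcripts, often block such sites, and also act in the export, decay and translation of mRNA. The balance between SR proteins and hnRNPs can change which exons are kept. Gene counts as used here report the amount of mRNA of each factor, not its protein, its phosphorylation or the splicing of its targets.

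All 27 libraries held between 14903757 and 18446372 counts. Hepatocyte markers dominated every library: the 8 genes of that list summed to between 23630 and 65620 FPKM (fragments scaled to gene length and library size, a level per length). Of the hepatocyte markers, 5 of 8 were called lower in PHx24 than in sham and 4 of 8 lower in PHx48, and 1 was called higher in PHx24. Of the 6 sinusoidal endothelial markers, 1 and 4 were called lower. Of the 6 neutrophil markers, the 2 that passed the filter were called higher in PHx24 than in sham and lower in PHx48 than in PHx24. Of the 6 Kupffer cell markers, 1 was called higher at each time and 2 lower at 48 h, and 1 was lower in PHx24_ETO than in PHx24. All 7 proliferation markers were called higher at each time, with sums of 33.5 to 144.2 FPKM in PHx24 and 74.5 to 139.3 FPKM in PHx48, against 11.9 to 19.1 FPKM in sham. Transcripts of other tissues were highest in sham 1, PHx24 1 and PHx48 3, which held skeletal muscle genes (up to 3557 FPKM in sham), and in sham 2, which held pancreatic genes (696.2 FPKM). The part of these cell type shifts in the results on splicing genes was not tested. For the 18 gene results named as the largest called changes, a call lost without those 4 libraries is given beside its value. Other genes also lost their call without them, and these are not marked in the text.

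Of the 52 genes, 51 passed the filter for testing, 1 FPKM or more in 4 or more libraries. The gene left out was Srsf12, which had 0 counts in all 5 sham libraries and at most 9 counts in any other library. Mean levels of the tested genes over all libraries covered a wide range on the FPKM scale. Hnrnpa2b1, which binds UAG-like motifs in RNA and sorts RNAs for transport, had the highest mean at 81.55 FPKM, close to the 81.09 FPKM of Hnrnpab. The order depended on the group: in PHx24 Hnrnpab averaged 84.4 FPKM and Hnrnpa2b1 66.4 FPKM, and in sham Srsf5 (68.1 FPKM) was above both. The SR gene with the highest level was Srsf5 at 54.5 FPKM, followed by Srsf2. Among the small nuclear ribonucleoprotein genes the highest mean was 38.0 FPKM, that of Snrpb, which encodes the Sm proteins B and B', followed by Snrpd1. Sf3b2 led the SF3 subunits at 33.5 FPKM, followed by Sf3b4. The median level was 24.5 FPKM for hnRNPs, 21.8 FPKM for SR genes, 14.9 FPKM for the Sm, U1 and U2 genes and 9.88 FPKM for the SF3 genes. The lowest tested gene was Hnrnpr at 1.6 FPKM, with the lowest value of 20 hnRNPs. These ranks and medians depend on the gene length used for FPKM and are not ranks of read counts. Hnrnpr, with a length of 22199 bases, had 421 to 868 counts a library. Snrpd1, with 837 bases, had 180 to 637.

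RefSeq promoter windows (build GRCm38.p6, 250 bases before to 50 after a transcript's start) were matched for 46 of the 52 genes, and 4 short motifs were searched on both strands. An ETS-like motif, CCGGAAG, was the most frequent, in 16 of the 46 genes (34.8%), against 20.8% of the 8722 tested genes and 9.93% of all 27025 genes with a window. It was spread unevenly over the classes, in 6 of 7 SF3 genes, 4 of 10 Sm, U1 and U2 genes, 4 of 11 SR genes and 2 of 18 hnRNPs. Either E2F-like motif, TTTCGCG or TTTGGCG, was in 4 genes (Srsf1, Srsf2, Snrpa and Snrpd2), 8.7% against 4.92% of tested genes. The E-box CACGTG was in 6 genes, 13% against 12% of tested genes. No motif contains another, and these counts are descriptions with no test. The 5 windows below run from 150 bases before to 30 after the start, all on the plus strand. They show the ETS-like motif beside the start of Sf3a1 and Snrpc, the E2F-like motif on the minus strand, upstream of the start of Srsf1 and across that of Snrpd2, and none of the 4 motifs at Hnrnpa1. Capitals mark the motif.
Sf3a1, chr11:4160204-4160383: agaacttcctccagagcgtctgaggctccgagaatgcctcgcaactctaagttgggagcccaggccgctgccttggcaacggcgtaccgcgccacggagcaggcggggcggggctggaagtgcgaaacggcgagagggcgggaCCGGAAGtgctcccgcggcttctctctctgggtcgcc
Snrpc, chr17:27839937-27840116: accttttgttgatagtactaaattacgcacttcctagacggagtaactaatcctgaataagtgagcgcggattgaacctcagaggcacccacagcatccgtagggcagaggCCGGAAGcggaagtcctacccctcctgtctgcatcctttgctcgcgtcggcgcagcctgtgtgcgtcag
Srsf1, chr11:88047223-88047402: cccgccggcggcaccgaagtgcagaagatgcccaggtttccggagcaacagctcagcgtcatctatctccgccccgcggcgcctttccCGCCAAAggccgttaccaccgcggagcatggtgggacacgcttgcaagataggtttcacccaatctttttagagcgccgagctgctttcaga
Snrpd2, chr7:19149688-19149867: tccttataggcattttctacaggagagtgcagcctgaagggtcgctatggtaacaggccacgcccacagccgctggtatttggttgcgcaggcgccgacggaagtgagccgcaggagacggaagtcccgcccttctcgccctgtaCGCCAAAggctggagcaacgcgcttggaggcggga
Hnrnpa1, chr15:103240247-103240426: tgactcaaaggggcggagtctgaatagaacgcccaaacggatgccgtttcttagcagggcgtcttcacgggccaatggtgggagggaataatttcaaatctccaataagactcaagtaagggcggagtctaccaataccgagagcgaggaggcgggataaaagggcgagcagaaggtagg
The motif began 7 bases before the start in Sf3a1, 39 in Snrpc, 62 in Srsf1 and 5 in Snrpd2.

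Counts assigned to the 52 genes took a larger share of each library as regeneration went on. The mean share was 0.359 ± 0.0247% (SD) over 5 sham libraries, 0.434 ± 0.02% over 7 PHx24 libraries and 0.549 ± 0.0391% over 7 PHx48 libraries. With etomoxir the shares were 0.439 ± 0.0586% in PHx24_ETO and 0.539 ± 0.0627% in PHx48_ETO (n = 4 each). The lowest PHx24 library held 0.406%, against 0.387% in the highest sham library. The lowest PHx48 library held 0.503%, against 0.466% in the highest PHx24 library, so the groups without etomoxir did not overlap in this share. The summed FPKM of the 52 genes did overlap, at 844 to 957.5 in sham, 943 to 1133 in PHx24 and 1119 to 1253 in PHx48. Among etomoxir livers, PHx24_ETO 2 held 0.504% and PHx48_ETO 4 held 0.446%, so these groups reached into each other's range. The gene by gene tests rest on normalisation factors rather than on such shares.

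**Figure D1:**
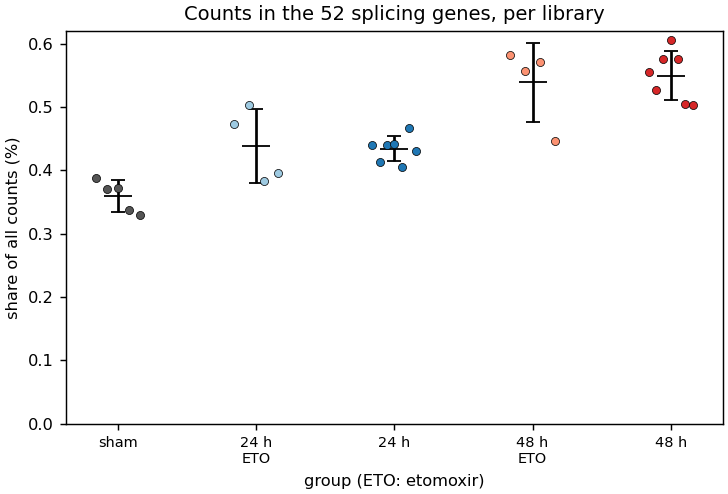
Share of all counts of a library (percent) that fell on the 52 splicing genes, by group; points are libraries, bars the mean and SD. Every PHx24 library lies above every sham library and every PHx48 library above every PHx24 library, while the etomoxir groups spread more widely at 0.439 ± 0.0586% (24 h) and 0.539 ± 0.0627% (48 h). The share of a typical gene rose on average as well.

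The PHx24 livers were compared with sham to ask which splicing factors had changed a day after resection. Of the 51 genes, 19 were called higher and 2 lower (edgeR's quasi-likelihood test, adjusted p under 0.05 over 12376 genes). Of all genes tested, 19.1% were called higher and 15.8% lower. The median log2 fold change of the 51 was 0.24, against 0.01 over all genes tested. Calls came from every class: 4 of 10 SR genes, 6 of 20 hnRNPs, 5 of 12 Sm, U1 and U2 genes and 4 of 9 SF3 genes were higher. The effects were small, and fold changes lay between 0.768 and 1.97. In 13 genes every PHx24 library was above every sham library, as in 9.41% of all genes tested.

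Snrpd1, which encodes the Sm protein D1 of the ring around spliceosomal RNAs, showed the largest rise at 24 h. The PHx24 libraries ranged from 26.8 to 41.8 FPKM with a median of 38.4 FPKM, against 14.6, 14.8, 17.9, 24.9 and 19.4 FPKM in the sham libraries. The 7 regenerating livers were all above the sham livers, although the highest sham value came close to the lowest PHx24 value. Its log2 fold change was 0.98 (SE 0.17, edgeR adjusted p = 9.81e-05). Snrpf, another Sm ring protein, averaged 19.1 ± 2.8 FPKM in PHx24 and 12.6 ± 2.8 FPKM in sham, a log2 fold change of 0.63 (edgeR, SE 0.18, adjusted p = 0.00706), and its groups overlapped. The U1 proteins Snrpa (0.51) and Snrpc (0.25) and the U2 protein Snrpa1 (0.59) were also called higher on the log2 scale. In Snrpc the 5 sham libraries lay within 3.99 to 4.1 FPKM and all 7 PHx24 libraries above them, at 4.13 to 5.69 FPKM. The Sm genes Snrpd2, Snrpe, Snrpg, Snrpb and Snrpn and the U2 gene Snrpb2 had log2 fold changes of 0.10 to 0.46 and Snrpd3 of -0.20, none called.

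Sf3a1, the largest subunit of SF3A and a contact between U1 and U2 (GRCm38 chromosome 11, 4160350 to 4182541), had PHx24 values of 5.22 to 6.65 FPKM with a median of 6.13 FPKM. The sham livers had 3.7, 3.67, 3.07, 3.9 and 3.95 FPKM. No library of either group fell between 3.95 and 5.22 FPKM. Its log2 fold change was 0.76 (SE 0.10, edgeR adjusted p = 2.3e-06). Sf3b4, an SF3B protein that binds RNA upstream of the branch point, averaged 14.1 ± 1.36 FPKM in PHx24 and 9.29 ± 0.624 FPKM in sham, with no overlap (log2 fold change 0.62, SE 0.07, edgeR adjusted p = 1.14e-06). The scaffold subunit Sf3b3 (0.43) and the SF3A subunit Sf3a3 (0.27) also rose on the log2 scale.

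Sf3b1, the subunit that clamps the branch point adenosine (chromosome 1, 54985169 to 55027481), differed in direction from those partners. Its PHx24 libraries had 8.62 to 9.92 FPKM with a median of 9.22 FPKM, against 10.06, 9.93, 11.01, 11.5 and 11.6 FPKM in sham. Each of the 7 was below each of the 5, by a small margin. The log2 fold change was -0.21 (SE 0.07, edgeR adjusted p = 0.0300). The call was lost, with values close to this, without PHx24 3 (-0.19, adjusted p = 0.0601) or PHx24 5 (-0.20, 0.0517) and when all genes of the table were tested (-0.19, 0.156). It was also lost on total counts alone (-0.10, 0.443). On the TPM scale (transcripts per library of fixed size) the value was -0.01. Sf3b2, the SF3 gene with the highest FPKM, had 34.7 ± 1.45 FPKM in PHx24 and 34.1 ± 1.64 FPKM in sham (log2 fold change 0.04, 95% interval -0.09 to 0.17), which excludes a change as large as that of Sf3a1.

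Among the SR genes, Srsf3, a small SR protein that also acts in mRNA export (chromosome 17, 29032628 to 29043373), rose most. The PHx24 libraries had 11.8 to 16.2 FPKM with a median of 14.2 FPKM, against 8.88, 7.13, 9.11, 7.83 and 9.01 FPKM in sham. The groups did not overlap, and the log2 fold change was 0.73 (SE 0.11, edgeR adjusted p = 1.45e-05). Srsf7 (0.57), its close relative in sequence and in export, also rose without overlap between groups, as did Srsf10 (0.40), which represses splicing when dephosphorylated. Srsf1, the founding member of the family, rose by 0.29 on the log2 scale (SE 0.10, edgeR adjusted p = 0.0202), to 21.6 ± 1.91 FPKM in PHx24 against 17.8 ± 1.37 FPKM in sham, with overlap.

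Srsf5, another splicing activator and the most abundant SR gene (chromosome 12, 80945504 to 80950507), fell. Its PHx24 libraries ranged from 41.3 to 58.8 FPKM with a median of 51.75 FPKM, against 68.9, 74.8, 81.6, 62.3 and 52.95 FPKM in sham. All 7 were below the sham mean, but sham 5 lay inside the PHx24 range. Set against sham, its log2 fold change was -0.38 (SE 0.11, edgeR adjusted p = 0.0106). The call depended on the scale and on the libraries: without the 4 libraries rich in muscle or pancreas transcripts the value was -0.36 and the adjusted p 0.0569, and the adjusted p was 0.0867 on total counts alone and 0.378 on the TPM scale, where the value was -0.17. Srsf6, Srsf4, Srsf11, Srsf9 and Srsf2 had log2 fold changes between 0.06 and 0.22, with none called.

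Hnrnpa1, which binds splicing silencers and opposes SR proteins (chromosome 15, 103240432 to 103246692), had the largest early rise of the hnRNPs. Its 7 PHx24 libraries were tightly grouped between 32.8 and 35.05 FPKM, and averaged 34.02 ± 0.779 FPKM. The sham libraries had 21.2, 17.3, 23.0, 21.55 and 21.5 FPKM. For this gene the log2 fold change was 0.72 (SE 0.14, edgeR adjusted p = 0.000196). Hnrnpab, an AU-rich RNA binder, rose by 0.65 on the log2 scale (SE 0.14, edgeR adjusted p = 0.00056), to 84.4 ± 14.6 FPKM in PHx24 against 54.65 ± 9.55 FPKM in sham. Its groups overlapped, since the 43.8 to 68.6 FPKM of sham reached above the lowest PHx24 value of 63.5 FPKM. Smaller rises of 0.24 to 0.33 on the log2 scale were called for Hnrnpd, a factor of AU-rich mRNA decay, Hnrnpul1, Hnrnpm and Hnrnpa3. The other 14 hnRNPs were not called, and their log2 fold changes lay between -0.12 and 0.30.

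**Figure D2:**
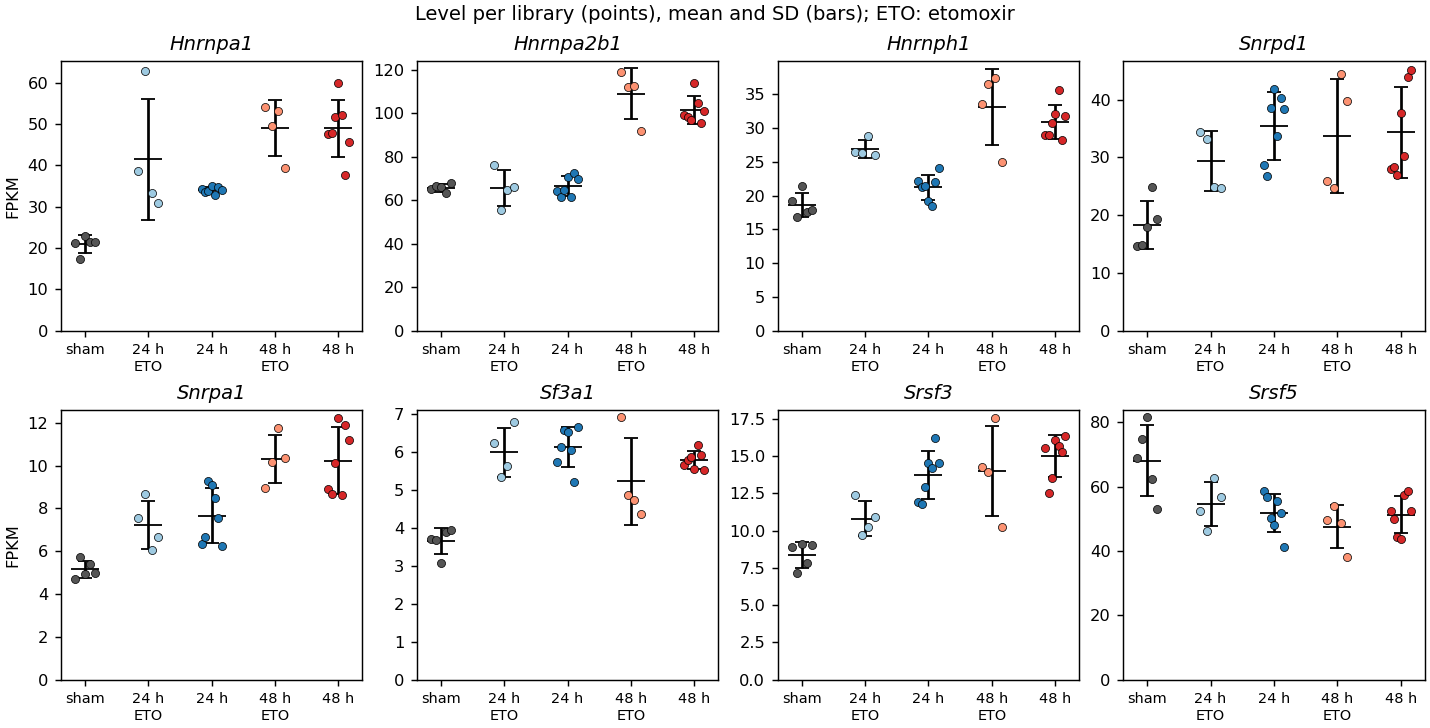
FPKM per library (points) with mean and SD (bars) for 8 splicing genes, by group. Hnrnpa1 and Snrpa1 are higher at 24 h and higher again at 48 h, Hnrnpa2b1 and Hnrnph1 differ from sham mainly at 48 h (101.5 ± 6.29 FPKM for Hnrnpa2b1 in PHx48 against 65.8 ± 1.78 FPKM in sham), Snrpd1, Sf3a1 and Srsf3 are higher at both times, and Srsf5 is lower at both.

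At 48 h the set of raised genes was wider. Of the 51 genes, 31 were called higher than sham and 1 lower by edgeR, where 19.5% of all genes tested were called higher and 17% lower. The median log2 fold change was 0.37, against 0.01 over all genes tested. Higher calls covered 13 of 20 hnRNPs, 6 of 10 SR genes, 7 of 12 Sm, U1 and U2 genes and 5 of 9 SF3 genes. All 20 hnRNPs had a log2 fold change above 0, from 0.12 to 1.25. In 21 genes every PHx48 library was above every sham library, as in 11.6% of all genes tested. The PHx48 and PHx24 groups were set against the same 5 sham libraries, so the lists share whatever is particular to them. Without the 4 libraries rich in muscle or pancreas transcripts the counts of higher calls were 14 at 24 h and 24 at 48 h. The share of all genes called in that smaller fit is not given here. These counts therefore do not show whether the splicing genes moved apart from all genes.

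Hnrnpa1 again led. The PHx48 libraries had 37.6 to 59.96 FPKM with a median of 47.8 FPKM, all above the highest sham value of 23.0 FPKM. The log2 fold change of 1.25 (edgeR, SE 0.14, adjusted p = 2.02e-07) corresponds to a 2.37-fold level, with a 95% interval of 1.95 to 2.89. Hnrnpa2b1 averaged 101.5 ± 6.29 FPKM in PHx48 and 65.8 ± 1.78 FPKM in sham (log2 fold change 0.64, SE 0.08, edgeR adjusted p = 1.44e-06). Hnrnph1, which binds runs of G (chromosome 11, 50376990 to 50386528), averaged 30.9 ± 2.57 FPKM and 18.6 ± 1.8 FPKM in the same groups (0.75, SE 0.09, edgeR adjusted p = 8.22e-07). Hnrnpab (0.73), Hnrnpul1 (0.57), the AU-rich binder Hnrnpa0 (0.57), the intron-binding Hnrnpc (0.54) and Hnrnpm (0.46) rose too on the log2 scale. Called rises of 0.27 to 0.35 were seen for the CA-repeat binders Hnrnpl and Hnrnpll, the poly-C binder Hnrnpk, Hnrnpa3 and the nuclear scaffold protein Hnrnpu. Hnrnpr, Hnrnph3, Hnrnpf, Hnrnpdl, Hnrnpul2, Hnrnpd and Hnrnph2 were not called, with log2 fold changes of 0.12 to 0.20.

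Snrpa1, the U2 protein that sits on the U2 RNA beside Snrpb2 (chromosome 7, 66059003 to 66074587), reached 2.01 times its sham level at 48 h (95% interval 1.69 to 2.38, edgeR adjusted p = 5.51e-07). PHx48 libraries had 8.62 to 12.2 FPKM with a median of 10.1 FPKM, against 4.69, 5.72, 4.94, 5.42 and 5 FPKM in sham, and no values overlapped. Its U2 neighbour Snrpb2 had 5.74 ± 0.69 FPKM in PHx48 and 5.07 ± 0.791 FPKM in sham (log2 fold change 0.19, 95% interval -0.09 to 0.47) and was not called. Snrpd1 stayed high with a log2 fold change of 0.93 (edgeR, SE 0.17, adjusted p = 0.0001515), at 34.3 ± 7.84 FPKM in PHx48 against 18.3 ± 4.19 FPKM in sham. Snrpf (0.72), Snrpc (0.66), Snrpa (0.52), Snrpd2 (0.44) and Snrpb (0.33) were the other called genes of the class on the log2 scale. Snrpb itself had 41.2 ± 5.48 FPKM in PHx48 and 33.2 ± 2.66 FPKM in sham, with overlap.

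Srsf3 had 15.0 ± 1.42 FPKM in PHx48 and 8.39 ± 0.869 FPKM in sham, a log2 fold change of 0.85 (edgeR, SE 0.11, adjusted p = 1.42e-06), and no values overlapped. Srsf9 (0.53), Srsf1 (0.52), Srsf7 (0.48), Srsf2 (0.45) and Srsf10 (0.42) were also called higher on the log2 scale. Srsf2, the SR protein known as a marker of nuclear speckles, averaged 46.8 ± 6.4 FPKM in PHx48 and 34.6 ± 3.36 FPKM in sham. Srsf5 remained low at 51.3 ± 5.73 FPKM in PHx48 against 68.1 ± 11.1 FPKM in sham (log2 fold change -0.40, SE 0.11, edgeR adjusted p = 0.00749). That call too was lost without the 4 libraries rich in muscle or pancreas transcripts (-0.32, adjusted p = 0.0961), on total counts alone (0.241) and on the TPM scale (0.879, with a value of -0.03).

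Of the SF3 subunits, Sf3a1 (0.68), Sf3b3 (0.65), Sf3b4 (0.50), Sf3a2 (0.41) and Sf3a3 (0.26) were called higher at 48 h on the log2 scale, which covers all 3 subunits of SF3A. Sf3b1 had 10.6 ± 0.887 FPKM in PHx48 and 10.8 ± 0.8 FPKM in sham (log2 fold change -0.01, 95% interval -0.17 to 0.14). On the TPM scale its sign turned, with 0.32 and a limma adjusted p of 0.012. Sf3b2 (-0.05), Sf3b5 (0.20) and the branch point contact Sf3b6 (-0.19) were not called either.

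**Figure D3:**
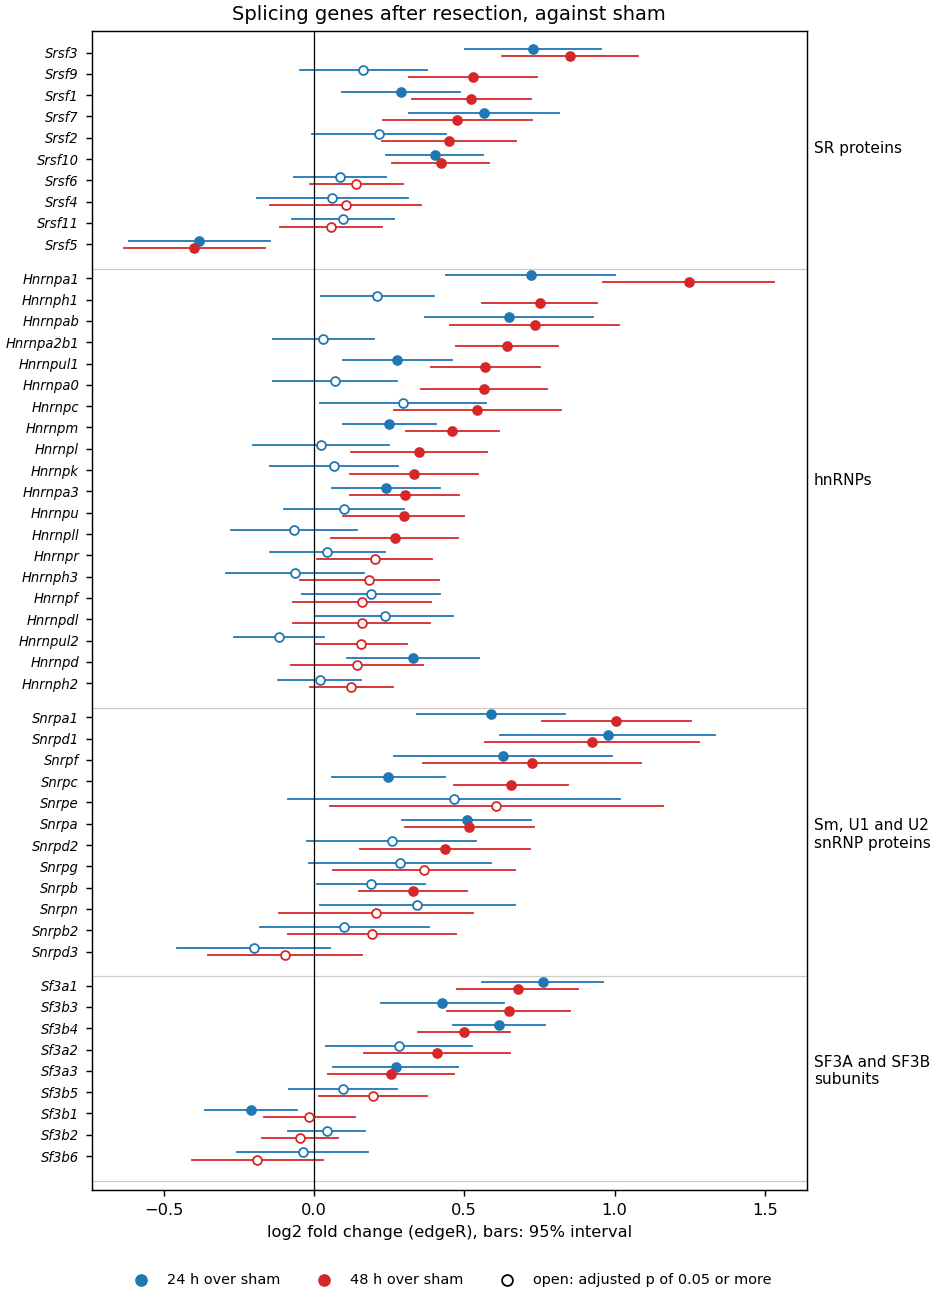
Log2 fold change against sham with its 95% interval for the 51 tested splicing genes at 24 h (blue) and 48 h (red), by class; filled points have an edgeR adjusted p under 0.05. Rises outnumber falls in every class, Hnrnpa1 reaches 1.25 at 48 h, and Srsf5 lies below 0 at both times.

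The scale of the data touches these counts. FPKM and edgeR's factors scale libraries to a typical gene. On the TPM scale (limma on log2(TPM + 1)) the median of all genes tested was higher than in sham by 0.19 in PHx24 and by 0.32 in PHx48. On that scale the median of the splicing genes was 0.42 at 24 h and 0.69 at 48 h. It called 33 of the 51 higher at 24 h, against 30.7% of all genes, and 49 of the 51 at 48 h, against 46.0% of all genes. It called 0 of them lower at either time, against 7.24% and 5.29% of all genes.

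Livers at 48 h were next compared with livers at 24 h, both after resection without etomoxir. Of the 51 genes, 12 were called higher and 0 lower by edgeR, where 6.19% of all genes tested were called higher and 5.41% lower. DESeq2 also called 0 lower, and 0 of the 19 genes with an unadjusted p under 0.05 were lower; 25.8% of all genes tested were under that p. The median log2 fold change was 0.12, against -0.01 over all genes tested. The calls were uneven over the classes: 9 of 20 hnRNPs, 1 of 10 SR genes, 2 of 12 Sm, U1 and U2 genes and 0 of 9 SF3 genes. The difference between classes was not tested. In 7 genes, 6 of them hnRNPs, every PHx48 library was above every PHx24 library, as in 2.88% of all genes tested.

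Hnrnpa2b1 (chromosome 6, 51460932 to 51469894) changed most on this second day. It had 95.3 to 114 FPKM in PHx48, with a median of 99.4 FPKM, against 61.3 to 72.3 FPKM in PHx24, with a median of 64.6 FPKM. The sham libraries had 65.2, 66.5, 66.0, 63.1 and 67.95 FPKM, inside the PHx24 range. The log2 fold change between the times was 0.61 (SE 0.07, edgeR adjusted p = 5.5e-06), whereas the 24 h value against sham was 0.03 with a 95% interval of -0.14 to 0.20. Hnrnph1 had 28.2 to 35.6 FPKM in PHx48 and 18.5 to 24.0 FPKM in PHx24, a log2 fold change of 0.54 (edgeR, SE 0.08, adjusted p = 9.47e-05). Hnrnpa0 (chromosome 13, 58125879 to 58128556) had 46.55 to 65.8 FPKM in PHx48 and 31.4 to 45.7 FPKM in PHx24 (0.49, SE 0.09, edgeR adjusted p = 0.000669). Both genes were separated without overlap.

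Hnrnpa1 rose further by 0.53 on the log2 scale (SE 0.12, edgeR adjusted p = 0.00523), and its lowest PHx48 library, at 37.6 FPKM, was above its highest PHx24 library, at 35.05 FPKM. Hnrnpll (0.33), Hnrnpl (0.33), Hnrnpul1 (0.29), Hnrnpul2 (0.27) and Hnrnpm (0.21) completed the called hnRNPs. Outside that class, Snrpa1 rose by 0.42 (SE 0.11, edgeR adjusted p = 0.0109), Snrpc by 0.41 (SE 0.08, edgeR adjusted p = 0.00168) and Srsf9 by 0.36 (SE 0.09, edgeR adjusted p = 0.0102) on the log2 scale. The call of Snrpa1 was lost without the 4 libraries rich in muscle or pancreas transcripts (0.37, adjusted p = 0.0519). The SF3 genes lay between -0.15 and 0.22, and Sf3a1, already raised at 24 h, had -0.08 with a 95% interval of -0.26 to 0.10.

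**Figure D4:**
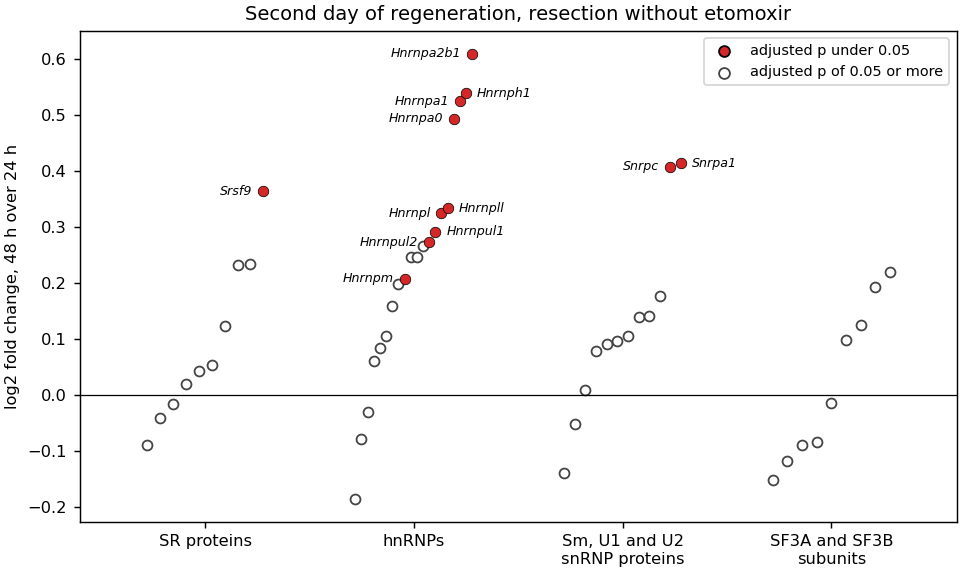
Log2 fold change of PHx48 over PHx24 for the 51 tested splicing genes, by class; filled points have an edgeR adjusted p under 0.05 and are named. The 12 called genes are all higher at 48 h and 9 of them are hnRNPs, led by Hnrnpa2b1 at 0.61, while no SF3 subunit is called.

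Put together, the 3 comparisons give each gene a time course. They share libraries and so are not independent of each other. The groups below depend on the threshold and the scale, and a gene not called at a time may still have changed. Hnrnph1, for instance, had 0.21 at 24 h (edgeR adjusted p = 0.0751) and was called on total counts alone (0.31, edgeR adjusted p = 0.0327). The share of all genes tested in each pattern is not given here. Called at 24 h and at 48 h but not between the times were 13 higher genes: Srsf1, Srsf3, Srsf7, Srsf10, Snrpa, Snrpd1, Snrpf, Sf3a1, Sf3a3, Sf3b3, Sf3b4, Hnrnpa3 and Hnrnpab. Called in all 3 comparisons were Hnrnpa1, Hnrnpm, Hnrnpul1, Snrpa1 and Snrpc. Not called at 24 h, but called higher at 48 h against sham and against PHx24, were 6 genes: Hnrnpa0, Hnrnpa2b1, Hnrnph1, Hnrnpl, Hnrnpll and Srsf9. Another 7 were called against sham at 48 h alone (Hnrnpc, Hnrnpk, Hnrnpu, Sf3a2, Snrpb, Snrpd2 and Srsf2). Hnrnpd was called at 24 h alone, Hnrnpul2 between the times alone, Srsf5 was lower at both times and Sf3b1 at 24 h alone. The other 16 tested genes were called in none of these comparisons.

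The rest of the splicing machinery was read from a list of 97 other genes, of which 94 were tested. In PHx24 against sham, 34 of the 94 were called higher and 8 lower (median log2 fold change 0.15), where 19.1% and 15.8% of all genes tested were. In PHx48 against sham, 40 were higher and 5 lower (0.18), where 19.5% and 17% of all genes were. Between the times 4 of the 94 were higher and 2 lower, where 6.19% and 5.41% of all genes were. The LSm ring, which binds U6 RNA as the Sm ring binds the other spliceosomal RNAs, was raised in 5 of 7 members at each time. Lsm5 had the largest change of the list, at 5.98 ± 2.28 FPKM in PHx24 and 2.15 ± 1.47 FPKM in sham (log2 fold change 1.46, SE 0.35, edgeR adjusted p = 0.00229), and 8.78 ± 2.46 FPKM in PHx48 (2.01, SE 0.36, edgeR adjusted p = 8.97e-05). Gemin6 of the SMN complex, which loads Sm rings onto RNA, rose by 0.95, the tri-snRNP cyclophilin Ppih by 0.87 and the tri-snRNP protein Prpf31 by 0.77 at 24 h. Of the 8 genes called lower in PHx24, 3 are given here, chosen after their values were seen. The tri-snRNP protein Prpf6 had 14.2 ± 1.49 FPKM in PHx24 and 23.95 ± 4.78 FPKM in sham (log2 fold change -0.73), the spliceosome protein Syf2 had -0.50 and the splicing regulator Mbnl1 had -0.61. All 3 were also called lower at 48 h. At 48 h Lsm3 rose by 1.14, Ppih by 1.12 and Gemin8 by 0.97. From 24 h to 48 h the U1-associated Luc7l3 (0.44), Lsm4 (0.44), the paraspeckle protein Sfpq (0.33) and Ptbp3 (0.31) rose, while Prpf19 (-0.29) and the methyltransferase Prmt5 (-0.28) fell, all on the log2 scale.

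Of the 8 tested genes for SR protein kinases and transport, 1 was called higher and 2 lower at 24 h. At 48 h 1 was called higher and 1 lower. Of all genes tested, 19.1% were called higher and 15.8% lower at 24 h, and 19.5% and 17% at 48 h. Counts this small do not show whether these 8 genes moved apart from all genes. The kinases Srpk2, Clk2 and Clk3 were called at neither time, with log2 fold changes between -0.18 and -0.02. Srpk1, the cytoplasmic SR kinase that sends SR proteins to the nucleus, rose to 2.98 ± 0.255 FPKM in PHx24 (log2 fold change 0.42, SE 0.06, edgeR adjusted p = 1.08e-05) and 3.06 ± 0.126 FPKM in PHx48 (0.46, SE 0.06, edgeR adjusted p = 2.56e-06), against 2.26 ± 0.138 FPKM in sham. Clk1, a nuclear SR kinase, fell to 5.78 ± 0.824 FPKM in PHx24 (-0.68, SE 0.12, edgeR adjusted p = 0.000108) and 6.48 ± 1.12 FPKM in PHx48 (-0.52, SE 0.12, edgeR adjusted p = 0.00152), against 9.32 ± 1.62 FPKM in sham. Its relative Clk4 fell at 24 h (-0.31, SE 0.10, edgeR adjusted p = 0.0200) and was not called at 48 h (-0.18). Esrp2, an epithelial regulator that sets adult splicing in hepatocytes, had 24.6 ± 1.83 FPKM in PHx24, 27.65 ± 3.08 FPKM in PHx48 and 25.2 ± 2.92 FPKM in sham, and was not called at either time. Its 95% interval on the log2 scale was -0.20 to 0.17 at 24 h and -0.04 to 0.34 at 48 h.

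Etomoxir was set against resection alone at each time. At 24 h edgeR called 0 of the 51 genes higher and 0 lower in PHx24_ETO than in PHx24, where 1.58% and 1.33% of all genes tested were called. At an unadjusted p under 0.05 there were 6 of the 51, 3 in each direction, where 19.4% of all genes tested were. In 3 genes every PHx24_ETO library was above every PHx24 library, as in 1.83% of all genes tested: Hnrnph1, Srsf11 and Srsf9. The lowest and highest limits over the separate 95% intervals of the 51 genes were a 0.568-fold and a 1.47-fold level. Each interval holds for its own gene, so this range is not a joint limit for all 51.

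Hnrnph1 had the smallest p. PHx24_ETO libraries had 26.4, 26.35, 28.8 and 26.05 FPKM, against 18.5 to 24.0 FPKM with a median of 21.5 FPKM in PHx24, without overlap. The log2 fold change was 0.32 (SE 0.10, edgeR adjusted p = 0.0648). Srsf11 had 13.7, 13.2, 13.8 and 12.2 FPKM in PHx24_ETO and 10.3 to 11.75 FPKM in PHx24 (0.26, SE 0.09, edgeR adjusted p = 0.0899). Srsf3 had 12.4, 9.69, 10.24 and 10.9 FPKM in PHx24_ETO and 11.8 to 16.2 FPKM in PHx24, a log2 fold change of -0.36 (edgeR, SE 0.12, adjusted p = 0.0827). By DESeq2 all 3 genes passed the threshold, with adjusted p = 0.0262 for Hnrnph1, 0.0406 for Srsf11 and 0.0474 for Srsf3. With limma on log2(FPKM + 0.1), Hnrnph1 (adjusted p = 0.0453) and Srsf11 (0.0497) passed. The result for these 3 genes thus depended on the test.

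None of the Sm, U1 and U2 genes was called with etomoxir at 24 h, while 11 of 12 had a log2 fold change below 0, with a median of -0.13. Of the 12, 1 had an unadjusted p under 0.05 by edgeR. Over all 12376 genes tested, 6297 were above 0, with a median of 0.01. The 12 genes were measured in the same libraries, so their signs are not independent, and a class effect was not tested. Of the 7 proliferation markers, 0 were called by edgeR between these groups, with a median log2 fold change of -1.40. Their sum was 124.8, 20.8, 32.9 and 41.6 FPKM in PHx24_ETO 1 to 4, against 33.5 to 144.2 FPKM in PHx24. PHx24_ETO 1 and 4 lay inside the PHx24 range of that sum, and PHx24_ETO 2 and 3 below it. Without PHx24_ETO 1, Srsf3 (-0.44, edgeR adjusted p = 0.0274) and Srsf7 (-0.42, edgeR adjusted p = 0.0457) were called lower with etomoxir. The part of the proliferation markers in that result was not tested. The share of all genes called in that fit is not given here. These calls therefore do not show whether Srsf3 and Srsf7 moved apart from all genes. PHx24_ETO 2 spread the group the other way for several hnRNPs: Hnrnpa1 had 63.0 FPKM in it, against 38.6, 33.4 and 31.0 FPKM in the other PHx24_ETO libraries. It was the highest of its group in 23 of the 51 genes and the lowest in 17.

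At 48 h edgeR called 0 of the 51 genes in either direction in PHx48_ETO against PHx48, where 0.129% of all genes tested were called higher and 0.0808% lower. DESeq2 also called 0, and 0 of the 51 had an unadjusted p under 0.05, against 8.11% of all genes tested. The intervals of the 51 genes ran from a 0.597-fold to a 1.34-fold level. Hnrnpa1 had 54.15, 49.6, 53.3 and 39.3 FPKM in PHx48_ETO, against 37.6 to 59.96 FPKM in PHx48 (95% interval of the log2 fold change -0.30 to 0.29). Hnrnpa2b1 had 119.1, 112.2, 112.7 and 91.96 FPKM in PHx48_ETO, against 95.3 to 114 FPKM in PHx48 (0.10, 95% interval -0.08 to 0.28). PHx48_ETO 4, whose skeletal muscle genes summed to 66.3 FPKM, was the lowest of its group in 26 of the 51 genes, and PHx48_ETO 3 the highest in 32. The median log2 fold change of -0.04 became 0.01 without PHx48_ETO 4.

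The etomoxir effect at 48 h minus that at 24 h passed the threshold in 0 of the 51 genes by edgeR and by DESeq2, where 0.0162% of all genes tested were called higher and 0% lower. An unadjusted p under 0.05, which 8.6% of all genes had, was found for Sf3b4 alone (difference -0.23 on the log2 scale, edgeR adjusted p = 0.57). Intervals of this difference are wide, from -0.75 to 0.89 over the 51 genes, so it was poorly resolved with 4 etomoxir libraries a time.

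**Figure D5:**
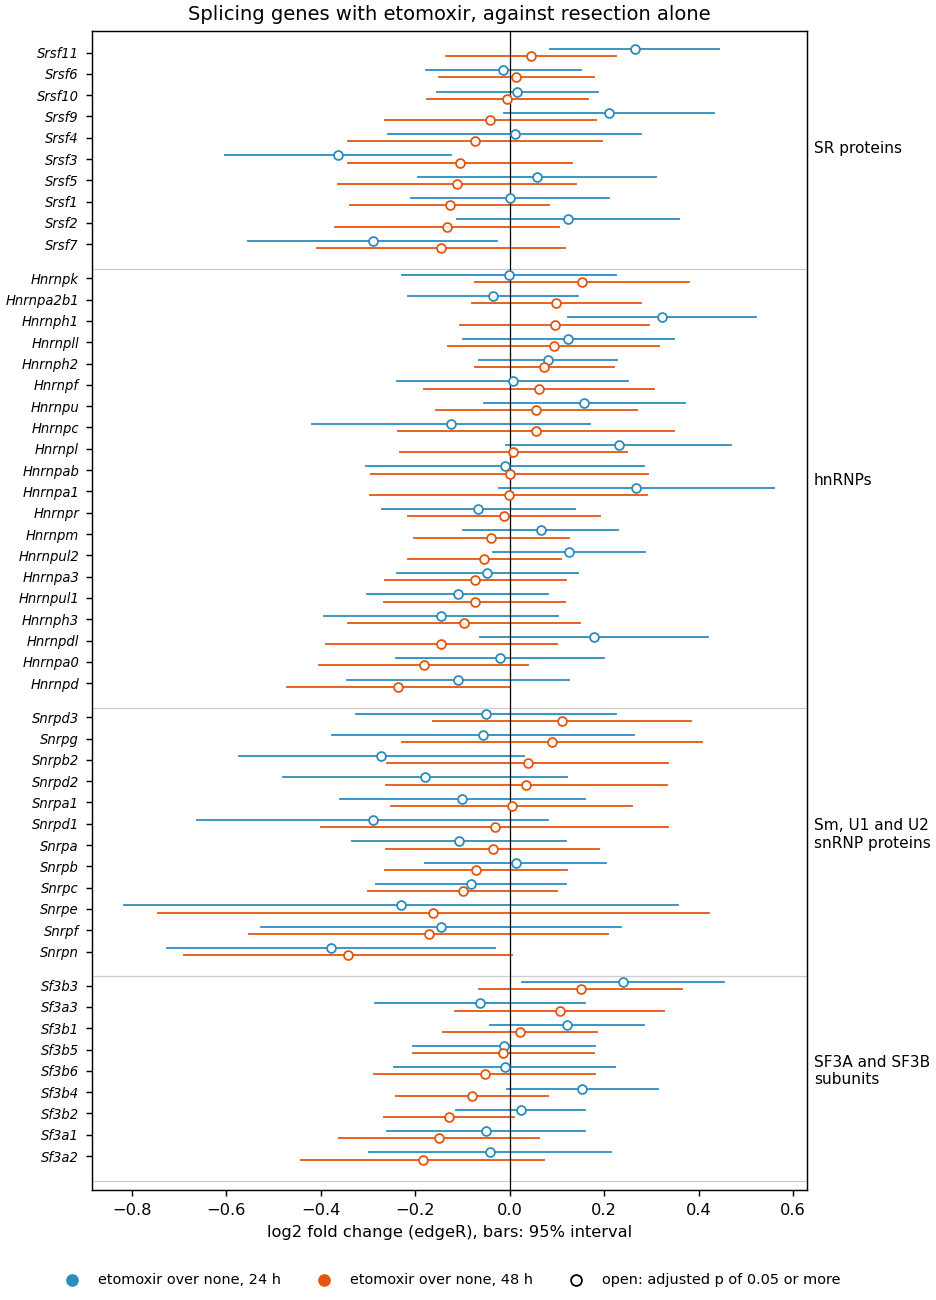
Log2 fold change of etomoxir over resection alone with its 95% interval for the 51 tested splicing genes at 24 h (blue) and 48 h (orange), by class. All points are open, since no edgeR adjusted p was under 0.05; Hnrnph1 at 0.32 and Srsf3 at -0.36 at 24 h have the smallest p values.

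Reads of several of these genes can be shared with other loci. Over 150 or more bases at 98% identity or more, 18 of the 52 genes have a near-identical match in another gene. Of these, 14 match processed pseudogenes, which are intronless copies left by retrotransposition. For Srsf2, Srsf4 and Snrpn the only matching gene (Mfsd11, Gm12992 and Gm38393) shares exon bases with them at the same locus and is not a separate copy. Copies of Hnrnpa3 had 41.4 FPKM in sum, against 10.57 FPKM for the gene, and those of Hnrnpk 24.85 FPKM, against 39.5 FPKM. FPKM is a level per length, so these values do not compare numbers of reads. The lengths used were 5396 bases for Hnrnpa3 and 6466 for Hnrnpk, while the longest matches to a copy were 1137 and 1378 bases. When counts of 33 such pseudogenes were added to the genes they copy, an alternative chosen after the data were seen, Hnrnpa3 had log2 fold changes of 0.46 in PHx24 and 0.50 in PHx48 against sham, where it had 0.24 and 0.30 alone. Snrpg, an Sm ring gene, was then called at 24 h (0.39, edgeR adjusted p = 0.0229) and at 48 h (0.38, edgeR adjusted p = 0.0229), where alone it was called at neither. Hnrnpa1 (0.69 and 1.22), Srsf3 (0.73 and 0.85) and Srsf5 (-0.38 and -0.39) moved little. Exon bases are shared with another gene in 21 of the 52 genes, whose values are therefore uncertain. Hnrnpm shares 1169 bases with March2 on the same strand. Sf3b3 with Cog4, Snrpd3 with Gucd1 and Srsf2 with Mettl23 overlap on opposite strands, which the kit does not tell apart.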

How the data were processed

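Per the labels' protocols, TRIzol was used on liver tissue, and a NEBNext Ultra kit made libraries from the polyadenylated RNA. HISAT2 2.0.5, fastp, DESeq2 1.20.0, CASAVA 1.8 and featureCounts 1.5.0-p3 are tools listed in the submitters' processing notes, with builds GRCm38 and mm10. Their settings, strand included, and the annotation release are not stated in the sources used. The deposited table holds raw counts per gene and library made by the authors, and FPKM values by the authors, which equal the count over gene length and a library size proportional to the median-of-ratios size factor.

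The 12376 genes reaching 1 FPKM in 4 or more of 27 libraries entered 1 fit over the 5 groups with edgeR 4.0.16 (R 4.3.3). It used TMM factors and the quasi-likelihood F test. P-values were adjusted by Benjamini-Hochberg over those genes, and 0.05 was the limit for a call. The SE is the fold change over the square root of F, and 95% intervals use the t distribution of the same fit. The fit was tested on simulated counts. Alternatives were DESeq2 1.42.0, limma 3.58.1 on log2(FPKM + 1), log2(FPKM + 0.1) and log2(TPM + 1), other scalings, no filter, the replicate number as a block, and leaving out libraries. Near-identical copies were found with blastn 2.17.0 on GENCODE M21. Total counts were 14903757 to 18446372, and edgeR's biological coefficient of variation was 0.266, a value common to all genes tested. For a gene with a narrow spread, such as Hnrnpa1 in PHx24 (34.02 ± 0.779 FPKM), counting error may be as large as the spread between libraries.

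The members, gene lists and alternatives were chosen with earlier results of these data known. Genes are named where they lead a comparison (up to 5 called higher and 3 lower), are among the 2 highest of their class, or account for a class. Of the wider splicing list up to 4 called genes a comparison are named, with Clk1, Clk4, Srpk1 and Esrp2. The labels do not say that replicate numbers pair libraries. In their deviations from the group mean, same-numbered libraries of different groups correlated between -0.24 and 0.66, with 13 of 45 pairs over 0.1. Differently numbered ones correlated between -0.51 and 0.59, with 64 of 242 pairs over 0.1. One gene of the wider list, Qki, is not analysed here.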

Additional observations from a re-analysis of the deposited data

Results flagged for a closer look

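Among the 15 named genes in the 5 groups, 3 of 75 gene and group pairs had a highest or lowest library set apart from the rest by more than the 95% limit of Dixon's test, where chance alone gives about 3.75. Hnrnph1 in PHx24_ETO 3 was the highest of its group at 28.8 FPKM, with the nearest library at 26.4 FPKM. Sf3b2 in PHx24 1, a library with skeletal muscle transcripts, was the lowest of its group at 31.5 FPKM, with the nearest at 34.7 FPKM. Srsf2 in PHx48_ETO 4 was the lowest of its group at 31.8 FPKM, with the nearest at 45.3 FPKM.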

How the results depend on the processing

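Of 424 alternative values of the 18 named gene results, 412 kept direction and call, 12 lost the call and 0 reversed. These results were named as the largest called changes of the main fit, and many alternatives leave out 1 library only, so much of this agreement was built in. The losses were 5 for Sf3b1 at 24 h, 3 for Srsf5 at 24 h, 3 for Srsf5 at 48 h and 1 for Snrpa1 between the times. Against sham at 24 h, the median log2 fold change was 0.33 on total counts alone and 0.42 on the TPM scale, where 33 genes were called higher. Lower calls were 0 under both, 1 without a filter and 1 without the 4 libraries rich in muscle or pancreas transcripts. Against sham at 48 h the medians were 0.59 and 0.69, with 49 higher calls on the TPM scale, and lower calls were 0 under both scalings and without the 4 libraries. Between the times, 21 genes were higher on total counts alone (median 0.25), 23 on the TPM scale (0.25) and 7 without a filter, where more genes were tested. With etomoxir at 24 h, DESeq2 called 2 higher and 1 lower, and limma with a pseudocount of 0.1 called 2 higher. Leaving out 1 library gave 15 to 21 higher and 1 to 2 lower calls at 24 h (medians 0.19 to 0.25), 26 to 31 higher and 1 lower at 48 h (0.33 to 0.40), 10 to 13 higher between the times (0.10 to 0.14), and 0 to 2 lower with etomoxir at 24 h (median -0.04 to 0.01), the 2 without PHx24_ETO 1. At 48 h with etomoxir the median ranged from -0.08 to 0.01. Elsewhere leaving out 1 library changed no count of 0. The replicate number as a block gave 16 higher and 2 lower at 24 h, 31 and 1 at 48 h, 10 and 0 between the times and 0 with etomoxir. The labels do not say that these numbers pair the libraries. Except where the library, filter or scale is itself the change, the cause was not tested. Shares of all genes called under these alternatives are not given here, except on the TPM scale against sham. The other counts therefore do not show whether the splicing genes moved apart from all genes.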
